A study of Mus musculus with 7 samples.

Results

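The genes described here encode 1 large Maf factor (Maf), the 3 small Maf factors (Maff, Mafg and Mafk) and 4 of their cap'n'collar partners (Bach1, Bach2, Nfe2 and Nfe2l2). They were found on the arrays by matching each probe's RefSeq accession to these gene symbols, and all 8 genes had a probe, with 11 probes in all, of 20014 genes named on the array. Any probes without such a match were not looked at, for these genes or for others named below. Expression had been measured on 7 one-colour Agilent arrays of mouse dendritic cells, which had been derived in culture from common myeloid progenitors. The 3 arrays labelled knockout came from Gata2(f/f)/ER-Cre mice, which carry a floxed Gata2 gene and a tamoxifen-inducible Cre recombinase. The 4 control arrays came from Gata2(f/f) mice without the Cre. GATA2 is a GATA-binding regulator of haematopoietic stem and progenitor cells. Both groups were on a C57BL/6 background and received tamoxifen between day 1 and day 10. Progenitors were sorted on days 20 to 22 and cultured with FLT3 ligand at 200 ng/ml on bone marrow feeder cells of SJL mice. The labels give no age, do not say how feeder cells were kept out of the RNA, whether animals were pooled, which promoter drives the Cre, or that replicates were separate cultures, so the p-values cover no more than the spread among the 7 arrays, which may be technical.

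Maf proteins are basic leucine zipper factors that bind DNA as dimers. Large Maf factors such as Maf carry an activation domain and take part in the late steps of macrophage differentiation and in IL-4 expression by T helper cells. Small Maf factors lack that domain: as homodimers they repress, and as partners of the cap'n'collar proteins they supply one side of the DNA contact. The partner sets the outcome, since NF-E2 (Nfe2) activates genes of platelet formation, NRF2 (Nfe2l2) activates antioxidant genes, and BACH1 and BACH2 repress.

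Maf was lower in the arrays labelled knockout and was the 1 gene of the 8 that passed the test. None of the 3 small Maf genes passed, nor did Bach1, Bach2 or Nfe2l2. Nfe2 was lower on each array labelled knockout than on any control array but did not pass. A gene was called when the Benjamini-Hochberg adjusted p of limma, fitted over all 14533 genes tested, was under 0.05. With that rule 1.39% of all genes were called lower, 1.51% higher and 2.9% either way. The groups did not overlap for 2 of the 8 genes, Maf and Nfe2, both lower, against 13.8% of all genes tested either way and 8.04% lower. The median log2 fold change was -0.12 over the 8 genes and -0.05 over all genes tested.

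Facts of the whole series bear on these values. The single Gata2 probe matched by accession was brighter on the arrays labelled knockout, at 2.93, 3.00 and 3.06, against -0.25, 0.24, 0.36 and 0.34 on the control arrays (log2 fold change 2.82, limma adjusted p = 0.00015). This goes against the label if the probe lies in the deleted part, on which the labels and headers say nothing, so every direction below is that of the arrays as labelled. All arrays lay on 1 slide in 1 scan, each group in a slide row of its own, so row, Cre and group cannot be told apart. The share of spots well above background was 61.5% to 67.4% in the arrays labelled knockout, against 54.1% to 56.9% in the control arrays. Negative control spots, in log2 relative to the array's 75th percentile, averaged -9.00 to -8.24 and -7.63 to -7.28 in these groups. A gene near background can therefore read lower on the arrays labelled knockout. Nfe2l3, well above background on 0 arrays, had means of -8.92 there and -7.78 on the control arrays. Of 11 dendritic cell markers 10 could be tested and none passed with limma, nor at an unadjusted p under 0.05, each read from its brightest probe, while Xcr1, of the cross-presenting subset, was well above background on 1 of the 7 arrays. Of the 10 tested, 1 had non-overlapping groups and was lower, H2-Ab1 (log2 fold change -0.32, limma adjusted p = 0.41), against 8.04% of all genes. A dimmer H2-Ab1 probe, also without overlap, gave -0.21. Dimmer probes of Siglech, of plasmacytoid dendritic cells, and Flt3, the FLT3 ligand receptor, had non-overlapping groups, with log2 fold changes of -1.09 and 0.39 that did not pass in the fit over every tested probe (limma adjusted p = 0.069 and 0.322). In such bulk samples fewer cells of a type and less RNA per cell cannot be told apart.

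Maf, the large Maf factor, was read by 1 probe (A_51_P405167) that was well above background on every array. Its level, as log2 of the signal relative to the array's 75th percentile, was -3.41, -2.89 and -3.80 on the arrays labelled knockout, against -1.18, -1.82, -1.49 and -1.84 on the control arrays. All 3 arrays labelled knockout lay below the lowest control, and the gap between the groups was wider than the spread within the controls. Maf fell 3.44-fold, the means being -3.37 ± 0.46 (SD, n = 3) for the arrays labelled knockout against -1.59 ± 0.31 (SD, n = 4) for the controls. The log2 fold change was -1.78 (SE 0.25, 95% interval -2.36 to -1.21, limma adjusted p = 0.0075). A log2 fold change this low or lower was found for 117 genes, or 0.805% of those tested. Leaving out 1 array at a time gave log2 fold changes between -2.02 and -1.57 with adjusted p between 0.00655 and 0.0349.

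**Figure D1:**
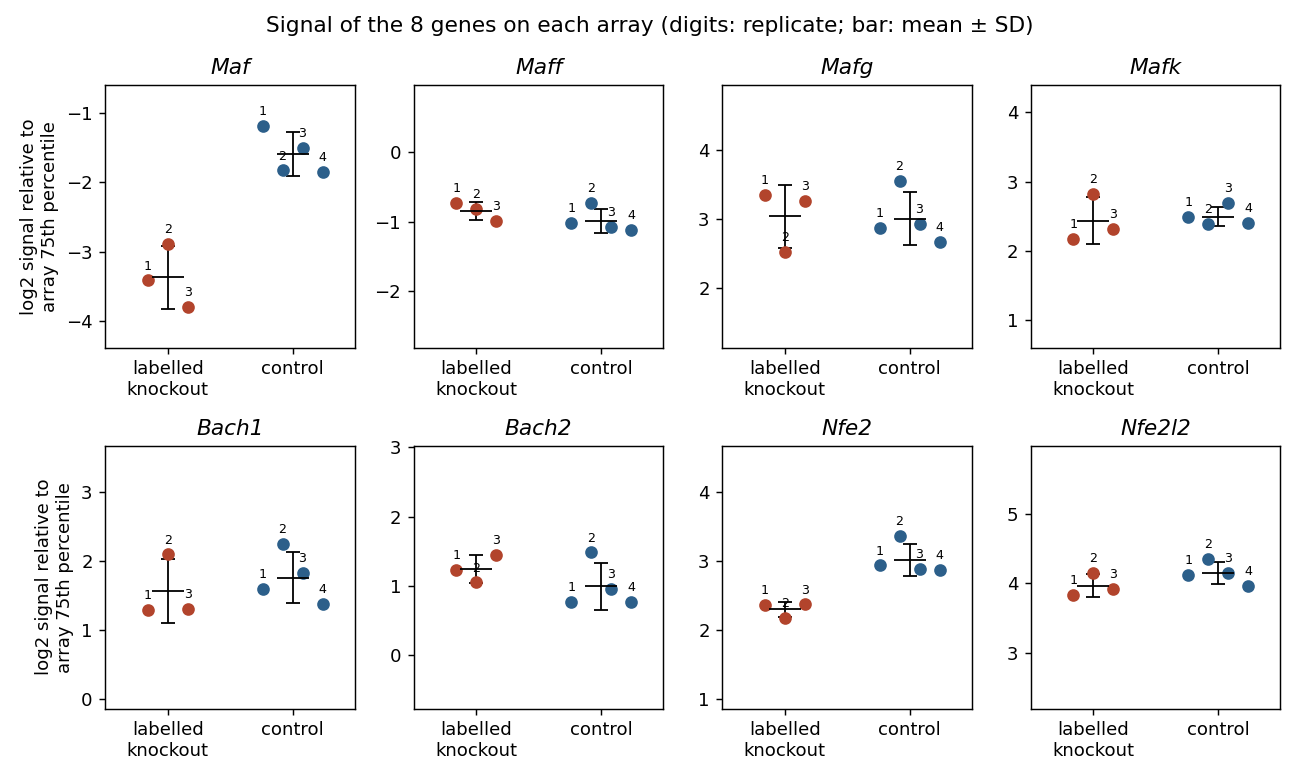
Signal of the 8 genes, each read from its brightest tested probe, on the arrays labelled knockout (red, n = 3) and the control arrays (blue, n = 4). The vertical axis is log2 signal relative to the array's 75th percentile and spans the same range in each panel, digits are replicate numbers, and bars are the mean and SD. Maf lies from -3.80 to -2.89 on the arrays labelled knockout, against -1.84 to -1.18 on the controls, Nfe2 also shows no overlap, and the groups overlap in the other 6 panels.

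The small Maf factors Maff, Mafg and Mafk can replace one another in part as dimer partners. Maff was at -0.73, -0.82 and -0.99 on the arrays labelled knockout, against -1.02, -0.74, -1.08 and -1.12 on the control arrays. Mafk, the partner first found in the NF-E2 dimer, was at 2.17, 2.82 and 2.32 on the arrays labelled knockout, against 2.49, 2.39, 2.69 and 2.40 on the control arrays. In both genes the groups overlapped, and for Mafk the arrays labelled knockout held the highest and the lowest values of the 7. The log2 fold change of Maff was 0.14 (95% interval -0.19 to 0.47, limma adjusted p = 0.74). That of Mafk was -0.06 (95% interval -0.47 to 0.36, limma adjusted p = 0.935), and its sign turned when replicate 1 or 3 labelled knockout or control replicate 3 was dropped. These intervals leave room for a fall of up to 1.14-fold in Maff and 1.39-fold in Mafk, and for a rise of up to 1.39-fold in Maff and 1.28-fold in Mafk.

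Mafg was read by 3 probes, all well above background on every array. Its brightest probe (A_66_P116632) was at 3.34, 2.52 and 3.26 on the arrays labelled knockout, against 2.87, 3.56, 2.93 and 2.67 on the control arrays (log2 fold change 0.03, 95% interval -0.59 to 0.65, limma adjusted p = 0.976). Another probe (A_55_P2177023) was at -0.06, 0.16 and 0.60 on the arrays labelled knockout, against 0.39, -0.42, 0.16 and 0.50 on the control arrays. A last probe (A_55_P2177026) was at -1.19, -0.99 and -0.51 on the arrays labelled knockout, against -0.52, -1.54, -0.92 and -0.67 on the control arrays. The 2 dimmer probes ordered the 3 arrays labelled knockout alike, and both were lowest on control replicate 2, where the brightest probe was at its highest. So the 3 probes agreed that the group means lay close together, while the arrays' order depended on the probe. In the fit over every tested probe the 2 dimmer probes had log2 fold changes of 0.07 and 0.01 (limma adjusted p = 0.947 and 0.991). In that fit 1.37% of the 34079 probes were called, 0.845% higher and 0.522% lower, and of the 10 tested probes of the 8 genes 1 was called, that of Maf (limma adjusted p = 0.0175).

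**Figure D2:**
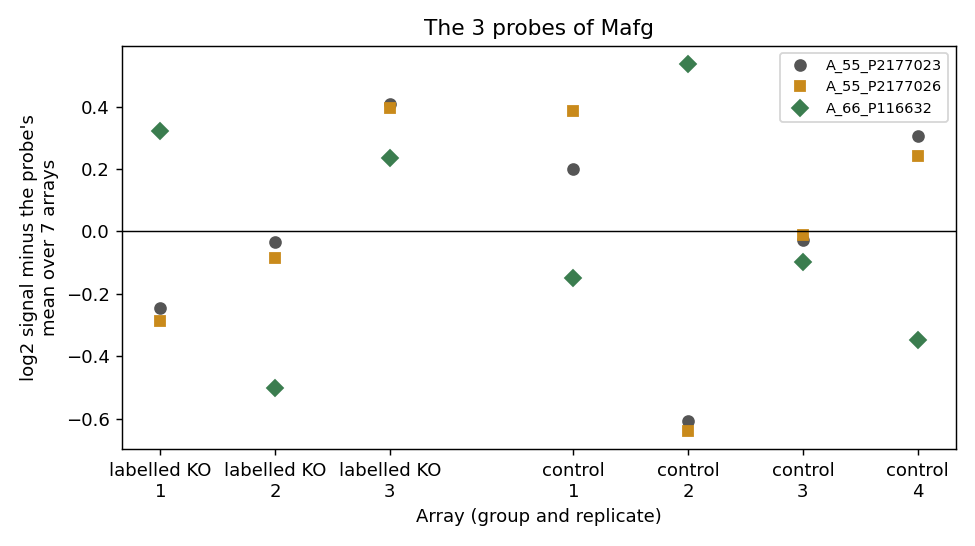
The 3 probes of Mafg on each array, labelled knockout on the left and control on the right. The vertical axis is log2 signal minus the probe's own mean over the 7 arrays, and each marker shape is 1 probe. On control replicate 2 the brightest probe (green diamonds) is at its highest, at 3.56 before centring, while the other two are at their lowest, at -0.42 and -1.54.

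Small Maf and cap'n'collar dimers bind the antioxidant response element, whose core was searched here as TGACNNNGC on both strands. RefSeq promoter windows of build GRCm38.p6, from 250 bases before to 50 after a gene's start, were held for 6 of the 8 genes, with no entry for Maf and Nfe2. The core was present in windows of 4 of these 6 genes, against 13.99% of all 27025 genes with a window. Stretches of 30 bases around it are shown because this is the kind of site that these proteins are known to contact. Each runs 5′ to 3′ on the gene's strand with the core, or its reverse complement, in capitals.
Maff: gggcgtctcaTGACTCTGCcactggaaaga
Mafg: ctctgcaggaGCACGGTCAacccggcgagc
Mafk: gatcccggaaGCGGTGTCAgtactggggag
Nfe2l2: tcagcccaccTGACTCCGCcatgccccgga
Prdx1: cagggaaagcGCTGAGTCAtcccccgtagg
Me1: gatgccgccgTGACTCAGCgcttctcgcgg

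They lie at chr15:79346499-79346528 (Maff, plus strand), chr11:120633750-120633779 (Mafg, minus strand), chr5:139791513-139791542 (Mafk, plus strand), chr2:75704884-75704913 (Nfe2l2, minus strand), chr4:116685456-116685485 (Prdx1, plus strand) and chr9:86695901-86695930 (Me1, minus strand). Prdx1, a peroxiredoxin, and Me1 belong to the antioxidant genes described below, where 7 of 16 genes with a window held the core, and were picked for comparison. The matches begin at positions -112 in Maff, -222 in Mafg, -13 in Mafk and -240 in Nfe2l2, counted from the annotated start. The extended core of Maf and NF-E2 sites was in no window of the 6 genes and in windows of 0.167% of all genes. The letters AGATAA, one form of the GATA motif, searched on both strands, were in a window of 1 of the 6 genes, Maff, and of 12.7% of all genes. These are matches of letters within a short window, and nothing on binding was measured.

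Bach1 encodes a repressor that haem releases from DNA, with the haem oxygenase gene as its best known target. It was at 1.29, 2.10 and 1.31 on the arrays labelled knockout, against 1.59, 2.24, 1.82 and 1.38 on the control arrays. The replicates within each group spread over most of the range, and the groups overlapped. The log2 fold change was -0.20 (SE 0.27, 95% interval -0.81 to 0.42, limma adjusted p = 0.813). It lay between -0.46 without replicate 2 labelled knockout and -0.03 without control replicate 2.

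Bach2 encodes a repressor of B and T lymphocytes that delays plasma cell formation. Its brighter probe (A_66_P114768) was at 1.23, 1.05 and 1.45 on the arrays labelled knockout, against 0.77, 1.48, 0.95 and 0.77 on the control arrays. The arrays labelled knockout lay above 3 of the 4 controls and below control replicate 2. The log2 fold change was 0.25 (SE 0.20, 95% interval -0.22 to 0.72, limma adjusted p = 0.66), and 0.41 without control replicate 2 (limma adjusted p = 0.274). A further Bach2 probe (A_55_P1956370) exceeded background clearly on 1 of 3 arrays labelled knockout and 0 of 4 control arrays, and it was not tested. Lymphocyte markers gave these values beside it. Of 8 T cell markers 5 were called higher, against 1.51% of all genes. One of the 5, Gata3, was well above background on 0 of 4 control arrays, and without it 4 of 7 were called. The CD3 chain genes Cd3e, Cd3d and Cd3g were not called, with log2 fold changes of -0.05, 0.01 and 0.72 (limma adjusted p = 0.915, 0.992 and 0.699). The 8 T cell markers had a summed signal of 6.32 to 7.08 on the arrays labelled knockout and 2.12 to 2.39 on the control arrays. The unit is the array's 75th percentile. Lck, one of those called higher, was the brightest of them on every array. Of 7 B cell markers 5 were tested and 0 were called, with a summed signal of 13.6 to 17.1 on the arrays labelled knockout and 13.2 to 17.8 on the control arrays. Cd79b was the brightest B cell marker on every array (log2 fold change -0.09). The part of these lymphocyte markers in the Bach2 and Maf values was not tested.

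Nfe2, the p45 subunit of NF-E2, is needed for platelet formation by megakaryocytes. Its probe was at 2.36, 2.18 and 2.37 on the arrays labelled knockout, against 2.93, 3.36, 2.89 and 2.87 on the control arrays. The groups did not overlap, and control replicate 2 stood above the other 3 controls. The means were 2.30 ± 0.11 (SD, n = 3) for the arrays labelled knockout against 3.01 ± 0.23 (SD, n = 4) for the controls, a log2 fold change of -0.71 (SE 0.16, 95% interval -1.07 to -0.35). With limma's adjusted p = 0.0614 it missed the threshold, and 559 genes, or 3.85% of those tested, had a log2 fold change this low or lower. Over the 20 alternative settings its log2 fold change stayed between -0.76 and -0.59, and it was called in 5 of them.

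Nfe2l2 encodes NRF2, which accumulates when its inhibitor Keap1 is modified by oxidants. Its level was 3.83, 4.15 and 3.92 on the arrays labelled knockout, against 4.12, 4.35, 4.15 and 3.96 on the control arrays. The groups overlapped through replicate 2 labelled knockout, the highest of its group. The log2 fold change was -0.18 (SE 0.14, 95% interval -0.51 to 0.15, limma adjusted p = 0.654), which leaves room for a fall of up to 1.43-fold and a rise of up to 1.11-fold. NRF2 is regulated largely at the level of the protein, which these arrays do not measure.

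**Figure D3:**
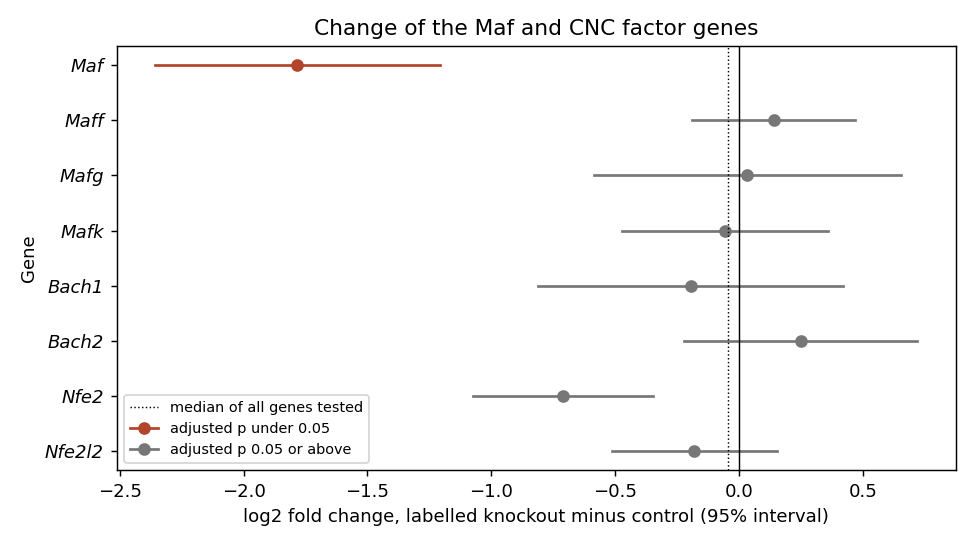
Log2 fold change of each of the 8 genes, arrays labelled knockout minus control arrays, with 95% intervals from limma. Points in red passed the threshold. Maf, at -1.78, is the 1 point in red, the interval of Nfe2 from -1.07 to -0.35 lies below 0, and the intervals of the other 6 genes span 0.

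Among the controls, replicate 2 was the highest array for 6 of the 8 genes (Maff, Mafg, Bach1, Bach2, Nfe2 and Nfe2l2), against 38.1% of all genes. Control replicate 4 was the lowest of the controls for 6 of the 8, against 27.1% of all genes. Mafg counts here by its brightest probe, and its other 2 probes were lowest on control replicate 2. Without control replicate 2 the log2 fold change of Maf was -1.86 (limma adjusted p = 0.0158) and that of Nfe2 -0.59 (limma adjusted p = 0.0592).

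Of the closest relatives of the cap'n'collar genes, Nfe2l1, which encodes a factor of proteasome gene expression, had a log2 fold change of -0.37 (limma adjusted p = 0.738), and Nfe2l3 was too dim to be tested. Regulators of NRF2 and BACH1 protein included the Keap1 and Cul3 ligase parts and the BACH1 ligase adaptors Fbxo22 and Fbxl17. None of the 7 passed with limma, nor did any at an unadjusted p under 0.05, and their median log2 fold change was 0.02. The greatest values in the list were 0.35 for Btrc, a ligase adaptor, and 0.34 for Sqstm1, an autophagy receptor that binds Keap1 (limma adjusted p = 0.485 and 0.477). Another Btrc probe gave -0.017, and the mean of its probes 0.17.

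Genes of the antioxidant response, the targets of NRF2 with small Maf, mostly had negative log2 fold changes, without any call. Of 19 tested, 15 had a negative log2 fold change, against 57.9% of all genes, and the list's median was -0.32, against -0.05 over all genes. None passed with limma, while at an unadjusted p under 0.05 there were 8 lower and 1 higher, against 7.32% and 6.14% of all genes. Nqo1, a quinone reductase and a standard readout of NRF2, was at -2.25, -1.39 and -1.70 on the arrays labelled knockout, against -0.87, -1.30, -0.75 and -0.67 on the control arrays. All 3 arrays labelled knockout lay below the controls, the nearest by a narrow margin, and the log2 fold change was -0.89 (limma adjusted p = 0.121). Me1, the cytosolic malic enzyme that supplies NADPH, had the greatest value in the other direction. It was at -1.23, -2.23 and -1.87 on the arrays labelled knockout, against -2.84, -2.66, -2.28 and -3.14 on the control arrays (log2 fold change 0.96, limma adjusted p = 0.15). Its other 2 tested probes gave the same direction, and with the mean of its probes Me1 passed (log2 fold change 0.97, limma adjusted p = 0.0477).

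Haem and iron handling genes, among them targets that BACH1 represses, had a median log2 fold change of -0.32 over 8 members, with 7 negative and none called by limma. Hmox1, Blvrb, Fth1 and Ftl1 stand in this list and in the antioxidant list. At an unadjusted p under 0.05, 3 were lower and 0 higher, against 7.32% and 6.14% of all genes. Over all genes tested, 57.9% had a negative log2 fold change and the median was -0.05. Spic, a factor of iron-recycling macrophages, had a log2 fold change of -0.98 (limma adjusted p = 0.133), and Blvrb, a biliverdin reductase, of -0.64 (limma adjusted p = 0.236). Spic was dim, and with normexp background correction its log2 fold change was -0.53 (limma adjusted p = 0.209). Hmox1, the haem oxygenase and main target of BACH1, was chosen after its values were seen. It was at 0.20, 0.07 and 0.06 on the arrays labelled knockout, against 0.61, 0.49, 0.90 and 0.64 on the control arrays. The groups did not overlap, but the log2 fold change of -0.55 did not pass (limma adjusted p = 0.0933). On a dimmer Hmox1 probe the groups overlapped.

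Of 13 macrophage genes tied to large Maf factors, 8 could be tested and 5 fell, against 1.39% of all genes, with a median of -1.24. One of the 5, C1qc, met the filter through the control arrays. Without it 4 of 7 fell and the median was -0.88. Members of this list were among the lower genes of an earlier look at these arrays, so the count is not independent evidence of its direction. The 5 that were not tested (C1qa, Vsig4, Cd163, Il10 and Mertk) were each well above background on no more than 2 of the 7 arrays. Cd14, a co-receptor for bacterial lipopolysaccharide, was at -0.03, 0.14 and 0.05 on the arrays labelled knockout, against 1.67, 1.57, 1.65 and 1.75 on the control arrays. The spread within each group was small beside the gap between them, and Cd14 fell 3.05-fold (log2 fold change -1.61, limma adjusted p = 0.000226). F13a1, a coagulation factor chain made by macrophages and megakaryocytes, fell 3.22-fold (limma adjusted p = 0.00048), and Stab1, a scavenger receptor, fell 4.21-fold (limma adjusted p = 0.0043). With normexp background correction the log2 fold change of Stab1 was -1.27 in place of -2.07 (limma adjusted p = 0.00521).

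The complement gene C1qc, whose product is part of C1q, was at -7.86, -5.74 and -7.80 on the arrays labelled knockout, against -3.33, -3.97, -2.24 and -4.10 on the control arrays. Its signal exceeded background clearly on 1 of 3 arrays labelled knockout and on all 4 controls. It fell by 3.72 on the log2 scale (limma adjusted p = 0.0162), but by 2.08 with a signal floor common to all arrays, where the call was lost (limma adjusted p = 0.0789), as it was without replicate 1 or 3 labelled knockout (limma adjusted p = 0.0695 and 0.0769). With normexp its log2 fold change was -1.92. Adgre1, the macrophage marker F4/80, named because it was the remaining call, fell 1.84-fold (limma adjusted p = 0.02), and it was no longer called when replicate 1 or 3 labelled knockout or control replicate 3 was left out (limma adjusted p between 0.0601 and 0.104). Csf1r, the receptor for macrophage growth factor, and C1qb, another C1q chain, had log2 fold changes of -0.30 and -0.41 and did not pass (limma adjusted p = 0.472 and 0.46). Of 10 macrophage markers listed, 7 could be tested. Against 1.39% of all genes, 3 were called lower, namely Adgre1, Cd14 and C1qc, which the list above also holds. The markers' summed signal, in units of the array's 75th percentile, was 38.7 to 50.02 on the arrays labelled knockout and 55.0 to 70.6 on the control arrays. Csf1r, whose groups overlapped, made up 73.6% to 85.6% of that sum on each array. Without Csf1r the sum was 7.20 to 8.78 on the arrays labelled knockout and 14.2 to 17.4 on the control arrays. Their part in the Maf result was not tested.

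**Figure D4:**
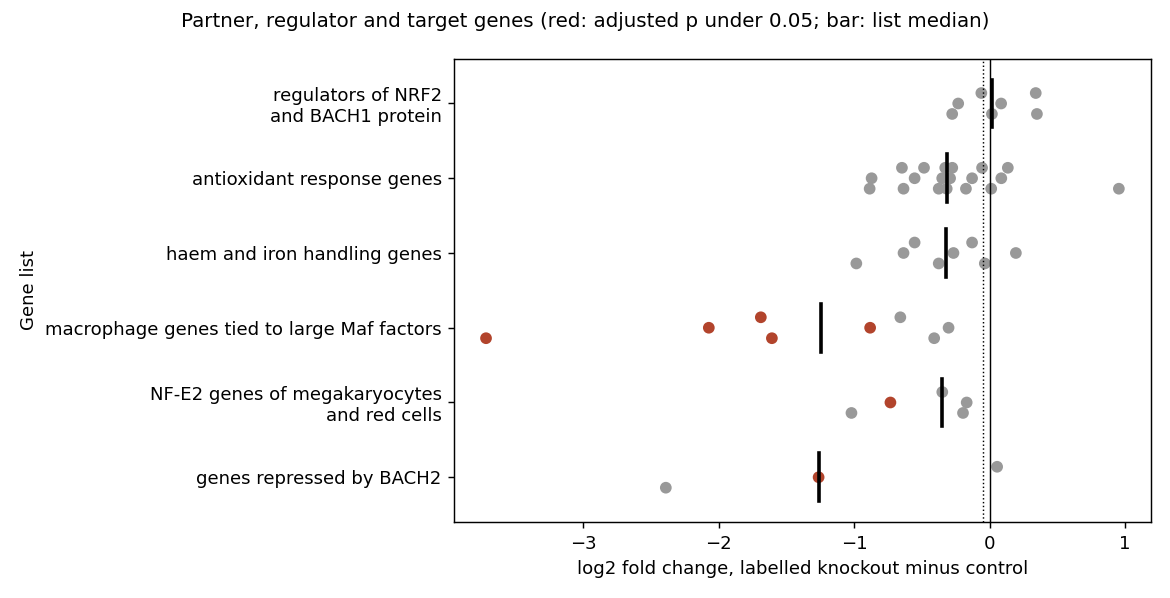
Log2 fold change, arrays labelled knockout minus control arrays, of each tested gene in 6 lists of regulators and targets. Each point is a gene, red where the adjusted p is under 0.05, the black bar is the list's median and the dotted line the median of all genes tested, -0.05. The 8 macrophage genes all lie below 0 with 5 in red, and the 19 antioxidant genes centre on -0.32 with none in red.

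NF-E2 genes of megakaryocytes and red cells had a median of -0.35 over 5 tested members, all negative, of which 1 fell. Over all genes 57.9% were negative and 1.39% were called lower. Rab27b had the largest change of the list and did not pass (log2 fold change -1.02, limma adjusted p = 0.113). Its other probe gave -1.23. Tbxas1, the thromboxane synthase of platelets and macrophages, was at 0.84, 0.72 and 0.94 on the arrays labelled knockout, against 1.40, 1.80, 1.51 and 1.56 on the control arrays. The groups were apart, and it fell 1.66-fold (limma adjusted p = 0.0323), a call that was kept without control replicate 2 and lost when any other single array was left out (limma adjusted p between 0.0538 and 0.111). Tubb1, the platelet tubulin, which NF-E2 is known to activate, had a log2 fold change of -0.17 and did not pass (limma adjusted p = 0.784). Alas2, the red cell enzyme of haem synthesis, was well above background on 0 of the 7 arrays. Of the 8 megakaryocyte and platelet markers, all tested, 4 were called lower, against 1.39% of all genes. The 8 markers had a summed signal of 26.2 to 32.5 on the arrays labelled knockout and 44.9 to 71.0 on the control arrays. Pf4 was the brightest of them on every array (log2 fold change -0.91, limma adjusted p = 0.0466), so the sum mostly follows that gene. Red cell markers summed to 1.52 to 1.59 on the arrays labelled knockout and 1.49 to 1.71 on the control arrays, with 0 of 5 tested members called. Of the red cell markers, Hbb-bt was the brightest on every array (log2 fold change -0.02). The part of these cells in the values of Nfe2 and Tbxas1 was not tested.

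Genes repressed by BACH2 were measured in 3 of 5 cases, and 1 was called lower, against 1.39% of all genes. Prdm1, the plasma cell regulator that BACH2 holds down in B cells, was at -2.52, -2.72 and -2.93 on the arrays labelled knockout, against -2.96, -2.51, -2.86 and -2.77 on the control arrays (log2 fold change 0.06, limma adjusted p = 0.926). The groups overlapped, as they did for Bach2. Gzmb, a granule protease of cytotoxic cells, had a log2 fold change of -2.39 and did not pass (limma adjusted p = 0.232). Il4, a cytokine that Maf activates in T helper cells, fell 2.40-fold (log2 fold change -1.26, limma adjusted p = 0.0181), and it was no longer called when replicate 1 or 3 labelled knockout or control replicate 4 was left out (limma adjusted p between 0.0509 and 0.0916). Of 7 mast cell and basophil markers, 6 were called lower, against 1.39% of all genes. Among the 6, Ms4a2 was well above background on 0 and Fcer1a on 2 of 3 arrays labelled knockout, and without them 4 of 5 were called. The 7 markers had a summed signal of 7.42 to 10.4 on the arrays labelled knockout and 18.1 to 29.7 on the control arrays. Kit, the marker not called (log2 fold change -0.20, limma adjusted p = 0.688), was the brightest of them on each array labelled knockout. The same held on control replicates 1 to 3, and Kit therefore weighs most in the sum on those arrays. On control replicate 4 Cpa3 was the brightest, at 3.20 against 3.03 for Kit. The part of these markers in the Il4 value was not tested.

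The pattern of Maf over the 7 arrays was set beside the other 12821 genes well above background on all of them. The highest Pearson correlations were those of Gm8909 (0.994), Itgam (0.989) and Dnajc25 (0.983), and the lowest that of Evpl (-0.990). The group difference enters each of these values, since the arrays fall into 2 groups. Itgam, the integrin alpha M chain of macrophages and granulocytes, was at 2.98, 3.22 and 2.83 on the arrays labelled knockout, against 3.77, 3.58, 3.82 and 3.67 on the control arrays. It followed the order of Maf within the arrays labelled knockout but not within the controls, and fell 1.62-fold (limma adjusted p = 0.0408). Its other 2 probes had overlapping groups, and the call was lost with the mean of its probes, with quantile normalization and over every tested probe (limma adjusted p = 0.18, 0.0701 and 0.0831). Without single arrays it was also lost, except without replicate 2 labelled knockout or control replicate 2 (limma adjusted p between 0.0887 and 0.195 where lost). Of 8 neutrophil markers 3 were called lower, against 1.39% of all genes, namely Cebpe, Prtn3 and Elane (log2 fold changes -3.09, -0.96 and -0.86). All 8 were lower at an unadjusted p under 0.05 with limma, against 7.32% of all genes. Their median log2 fold change was -2.08, against -0.05 over all genes. The 8 markers had a summed signal of 39.2 to 56.2 on the arrays labelled knockout and 70.8 to 76.1 on the control arrays. Mpo, which was not called (limma adjusted p = 0.146), was the brightest of them on every array. The part of these markers in the Itgam value was not tested. Evpl, which encodes the epithelial protein envoplakin, rose 2.40-fold (limma adjusted p = 0.013), and that call was lost without replicate 1 or 3 labelled knockout (limma adjusted p = 0.0552 and 0.0668). Gm8909 and Dnajc25 had log2 fold changes of -0.65 and -0.48 and did not pass (limma adjusted p = 0.0549 and 0.0933).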

How the data were processed

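Spot intensity, the unit of the scanner files, was deposited by the authors as Feature Extraction version 10.7.3.1 wrote it, with annotation on mm9, per the file headers. A deposited table of the series gives log2 values that differ from the scanner values by each probe's median over the arrays, which had been subtracted, and run in the same direction. Its column medians were 0, or -0.02 for replicate 3 labelled knockout. It served as an alternative.

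Processed signals were put on the log2 scale, and the 75th percentile of the array's ordinary spots was subtracted. Spots marked as outliers were dropped, and the spots of a probe were averaged. Of 55680 probes, 26406 matched 1 RefSeq symbol (assembly GRCm38.p6) by accession. Testing needed a signal well above background on 3 or more of the 7 arrays, and each gene was taken from its brightest such probe. The fit used limma 3.58.1 (R 4.3.3) with lmFit and eBayes, no block, and Benjamini-Hochberg adjustment over 14533 genes. Where all spots of a probe were outliers on an array, that array was missing from the probe's fit, which happened for none of the 8 genes. The procedure was first tested on simulated data. The number of arrays limits the precision.

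The 8 genes, the lists and the tests were chosen with earlier results of these data known. The text names the 8 genes with their probes, Gata2, up to 4 called genes per list and direction (or 2 by size where none was called), and the 3 genes of highest and 1 of lowest correlation with Maf. Hmox1, Adgre1, Csf1r, C1qb, Tubb1, Rab27b, Prdm1, Gzmb, Prdx1 and the single cell type markers were added after their values were seen. Normexp used the median signal, the one raw signal column used here. Alternatives covered background correction, normalization, filters, probe choice, variance model, array weights, a replicate block and single arrays left out. A related gene is not reported here.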

Additional observations from a re-analysis of the deposited data

Results flagged for a closer look

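Nfe2 on control replicate 2 stood apart from the other 3 control arrays, at 3.36 against 2.87 to 2.93. Its gap to the nearest control took 0.861 of the whole range of the 4 controls, above Dixon's 95% critical value for 4 samples. One of the 30 sets of control values examined in this way was marked, and chance marks about 1 in 20. The 3 arrays labelled knockout lay at 2.18 to 2.37, below the controls with or without it.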

How the results depend on the processing

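Over 20 alternatives Maf stayed lower, with a log2 fold change between -2.09 and -1.57, and was called in 19. With the replicate number as a block it was -1.87 (limma adjusted p = 0.0658). The labels do not say whether the numbers pair the arrays. Deviations of same-numbered arrays correlated at -0.17, -0.16 and -0.01, which with 3 arrays per group cannot settle it. Control replicate 4 has no partner of its number, and leaving it out without a block gave Maf the same -1.87. The fit with the block called 88 genes higher, 94 lower and 4 list genes. Nfe2 passed with normexp (-0.72), no filter (-0.71), the filter on all arrays (-0.71), a variance trend (-0.71) and array weights (-0.60). In these fits, in that order, 3.31%, 14.2%, 2.97%, 3.17% and 5.15% of all genes were called, against 2.9% in the main fit. Mafg turned to -0.077 with the block, and leaving out single arrays gave it -0.12 to 0.29 and Mafk -0.25 to 0.079. Maff, Bach1, Bach2 and Nfe2l2 kept their direction and were not called in any alternative. Over all genes 219 were called higher and 202 lower, against 365 and 2483 without a filter, 378 and 371 with array weights, 195 and 286 with normexp, and 88 to 227 and 105 to 180 without single arrays. Of list genes 7 were called lower, against 13 without a filter, 12 with array weights and 3 to 8 without single arrays, and 0 higher, against 1 with the mean of a gene's probes (Me1) and 0 to 0 without single arrays. The cause of these shifts was not tested. Signal over background limits C1qc, and both Bach2's second probe and Nfe2l3 were too dim to test.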
